A study of Homo sapiens with 10 samples.

Results

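The aminoacyl-tRNA synthetases and the scaffold proteins that bind them were followed in SH-SY5Y cells, a human neuroblastoma line, after paraquat. The 38 genes examined were 19 cytosolic enzymes or enzyme subunits, 16 mitochondrial enzymes and 3 scaffold proteins, chosen by name. A gene was measured where the array annotation gave a row with its symbol and no other, which held for 31 of the 38, out of 14232 genes with such a row among 22011 rows. These were 18 cytosolic enzymes, 12 mitochondrial enzymes and the scaffold protein AIMP1, with 1 row each. Of the other members, FARSB, EARS2, SARS2, VARS2 and YARS2 had only rows shared with another gene, and AIMP2 and EEF1E1 were not analysed here.

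The series compared 5 arrays of cells treated with paraquat (numbered 8, 12, 14, 18 and 20 in the sample titles) with 5 arrays of untreated cells (controls 7, 11, 13, 17 and 19). Paraquat is a herbicide that cycles between redox states and gives rise to superoxide. The labels used here give neither dose nor duration, and they do not say if each array had its own culture. The p-values therefore reflect array-to-array spread, which could be technical. All values are on the log2 scale of the deposited RMA table, so a difference of 1 is a 2-fold change. Levels of different genes cannot be compared, because each row has its own probes. Array medians lay between 6.78 and 6.92 in the paraquat group and between 6.85 and 6.93 in the control group.

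Aminoacyl-tRNA synthetases attach each amino acid to its transfer RNA, the step that fixes the genetic code before the ribosome reads it. Cells keep separate sets for the cytosol and for mitochondria, and nearly all the mitochondrial enzymes are encoded by nuclear genes of their own. In mammals several cytosolic enzymes sit together with the scaffold proteins AIMP1, AIMP2 and EEF1E1 in the multisynthetase complex. When amino acids run short or cells are stressed, kinases phosphorylate the initiation factor eIF2, the transcription factor ATF4 is made, and ATF4 is known to activate several cytosolic synthetase genes through the C/EBP-ATF response element.

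Most cytosolic synthetase transcripts rose after paraquat, and most mitochondrial ones passed the test in neither direction. Of 18 measured cytosolic enzymes, 11 rose and 0 fell at an adjusted p under 0.05 (limma, Benjamini-Hochberg over all rows), whereas 9.55% of all genes rose and 14.2% fell. At an unadjusted p under 0.05, 3 cytosolic enzymes were lower, as were 2909 of all 14232 genes. These 3 passed downward in limma when arrays were weighted by their precision, as did 3588 of all 22011 rows. Of 12 mitochondrial enzymes, 1 rose and 1 fell. The median log2 change was 0.47 over the cytosolic enzymes and -0.05 over the mitochondrial ones, and the median over all rows was 0.005. In 10 cytosolic genes every paraquat array lay above every control array, against 8.34% of all genes, and this held for 0 mitochondrial genes.

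The largest increases were in the enzymes for tryptophan, glycine, cysteine and serine. WARS1, the cytosolic tryptophanyl-tRNA synthetase and also an interferon-inducible gene (transcript cluster 3579546), had values of 10.64, 10.52, 10.73, 10.45 and 10.38 on paraquat arrays 8, 12, 14, 18 and 20, against 9.10, 9.48, 9.27, 9.40 and 9.15 on control arrays 7, 11, 13, 17 and 19. The groups were far apart, with the lowest paraquat array well above the highest control, and the rise was 2.40-fold (log2 change 1.26 ± 0.10, SE, adjusted p = 1.19e-05 by limma). GARS1, which charges glycine in both compartments from a single gene (2995420), had 9.79, 9.21, 9.77, 9.84 and 9.53 on paraquat arrays, against 8.28, 8.05, 8.60, 8.83 and 8.78 on controls. The groups did not overlap, although GARS1 was the most spread of the 11 among its controls (SD 0.33, n = 5), and the rise was 2.17-fold (1.12 ± 0.17, adjusted p = 0.000977). CARS1, the cysteinyl-tRNA synthetase (3359529), had 9.58, 9.73, 9.76, 9.88 and 9.68 on paraquat arrays, against 8.68, 8.47, 8.52, 8.63 and 8.87 on controls. All 5 paraquat values exceeded all controls, a rise of 2.13-fold (1.09 ± 0.10, adjusted p = 2.05e-05). SARS1, the seryl-tRNA synthetase, which also loads serine onto the selenocysteine transfer RNA (2350551), had 11.45, 11.56, 11.71, 11.45 and 11.48 on paraquat arrays, against 10.39, 10.74, 10.32, 10.52 and 10.30 on controls. Again no values overlapped, and the rise was 2.11-fold (1.08 ± 0.10, adjusted p = 3.86e-05). These 4 were the cytosolic enzymes raised at least 2-fold, a size that 2.0% of all genes reached upward with an adjusted p under 0.05 in limma.

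The enzymes for tyrosine, threonine, alanine and isoleucine rose by smaller amounts, with no overlap between the groups. YARS1 (tyrosine, 2405192) had 10.28 to 10.69 on paraquat arrays and 9.50 to 9.63 on controls, a change of 0.90 ± 0.09 (adjusted p = 5.48e-05). Its controls were the tightest of any member (SD 0.05, n = 5). TARS1 (threonine, 2805786) averaged 11.18 ± 0.16 in paraquat cells and 10.45 ± 0.17 in controls (SD, n = 5 each), a change of 0.73. AARS1 (alanine, 3697015) averaged 11.11 ± 0.12 in paraquat cells and 10.39 ± 0.16 in controls, a change of 0.72. IARS1 (isoleucine, 3214668), a member of the multisynthetase complex, averaged 11.12 ± 0.12 in paraquat cells and 10.53 ± 0.11 in controls, a change of 0.59. Adjusted p-values of these last 3 were 0.000782, 0.000465 and 0.000862.

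The smallest passing increases were in EPRS1, NARS1 and MARS1. EPRS1 joins the glutamate and proline enzymes in a single protein of the complex (2456746) and had 10.04, 9.93, 10.42, 9.89 and 10.02 on paraquat arrays, against 9.91, 9.36, 9.51, 9.56 and 9.55 on controls. Control 7 reached the range of the paraquat arrays, so EPRS1 was the only 1 of the 11 with overlapping groups (0.48 ± 0.13, adjusted p = 0.0203). NARS1 (asparagine, 3809671) changed by 0.46 ± 0.11 (adjusted p = 0.0107). MARS1 (methionine, in the complex, 3418153) changed by 0.35 ± 0.07 (adjusted p = 0.00436), with 11.06 to 11.20 on paraquat arrays and 10.73 to 10.87 on controls. Its change was the smallest of the 11, but the arrays within each group differed little (SD 0.05 in paraquat cells and 0.06 in controls). When tested against a minimum fold of 1.2, EPRS1, NARS1 and MARS1 no longer passed (adjusted p = 0.365, 0.323 and 0.595).

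**Figure D1:**
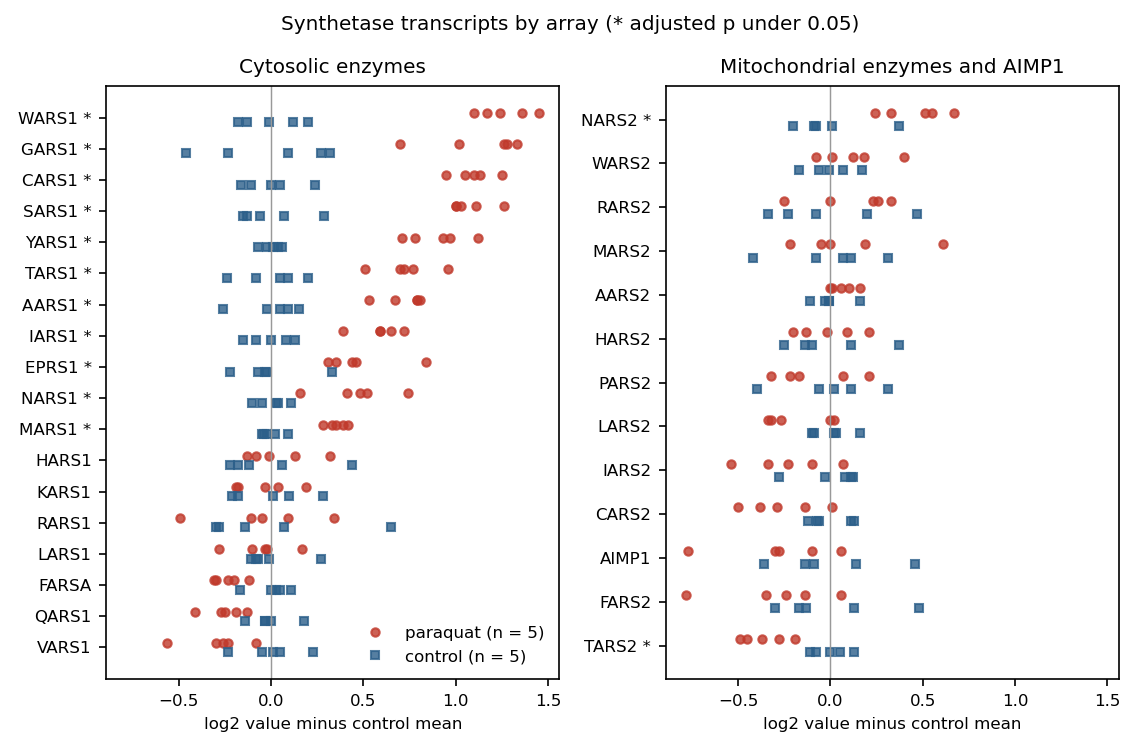
Each point is 1 array, drawn as its log2 value minus the mean of the 5 controls of that gene, with paraquat arrays as circles above control arrays as squares, and genes ordered by change. The 11 starred cytosolic enzymes lie to the right, from MARS1 at 0.35 to WARS1 at 1.26, while the mitochondrial enzymes spread around 0 apart from NARS2 (0.46) and TARS2 (-0.35).

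The remaining 7 cytosolic enzymes did not pass in either direction. Those for histidine, lysine, leucine and arginine had changes within 0.05 of 0. HARS1 (histidine, 2878474) had 9.95, 10.35, 10.16, 9.90 and 10.02 on paraquat arrays, against 10.09, 10.47, 9.85, 9.91 and 9.81 on controls, a change of 0.05 with a 95% interval of -0.26 to 0.35. The groups overlapped throughout, and the highest value in each came from paraquat 12 and control 11. KARS1, which serves both compartments from a single gene (3699757), changed by -0.03 (-0.29 to 0.22), LARS1 (2879927) by -0.05 (-0.29 to 0.18) and RARS1 (2839671) by -0.04 (-0.48 to 0.39). The upper bounds for KARS1 and LARS1 lie below the estimated changes of all 11 enzymes that rose. Differences between these genes were not tested, and the 95% interval of MARS1, 0.20 to 0.51, overlaps that of KARS1. FARSA, the alpha subunit of the phenylalanine enzyme (3851868), QARS1 (glutamine, 2673937) and VARS1 (valine, 2949380) had changes of -0.24, -0.25 and -0.29 that missed the threshold (adjusted p = 0.0616, 0.0691 and 0.105). With weighted arrays all 3 passed downward (adjusted p = 0.0274, 0.0473 and 0.0151). With adjacent title numbers as a block, FARSA and VARS1 passed downward (adjusted p = 0.0475 and 0.0236) and QARS1 did not (0.0846), and FARSA also passed without control 7 (0.0379).

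Enzymes inside and outside the multisynthetase complex were counted separately, and the difference between them was not tested. Of the 7 complex enzymes measured, IARS1, EPRS1 and MARS1 rose, at a median change of -0.03 over the 7. Of the 11 cytosolic enzymes outside it, 8 rose, at a median of 0.73, and all 4 enzymes raised at least 2-fold were among them. AIMP1, the scaffold protein that also gives rise to a secreted cytokine (2738466), had 8.56, 8.72, 8.36, 7.89 and 8.38 on paraquat arrays, against 8.80, 9.12, 8.30, 8.57 and 8.52 on controls, a change of -0.28 ± 0.18 (adjusted p = 0.35). The synthetases also form structural classes I and II, named for their catalytic folds. Of 9 cytosolic class I enzymes 5 rose, and of 8 measured cytosolic class II enzymes 5 rose, with EPRS1, which holds an activity of each class, counted in neither.

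Among the mitochondrial enzymes, NARS2 rose and TARS2 fell. NARS2, the asparagine enzyme (3383322), had 9.60, 9.76, 9.64, 9.42 and 9.33 on paraquat arrays, against 8.89 to 9.46 on controls. Control 11, the highest of its group, lay inside the paraquat range and the other 4 controls lay below it. The change was 0.46 ± 0.12 (adjusted p = 0.0227), and it missed the threshold without control 7, 13 or 19 or without paraquat 12 (adjusted p between 0.0521 and 0.0548). TARS2, the threonine enzyme (2358320), had 8.35, 8.17, 8.26, 8.05 and 8.09 on paraquat arrays, against 8.59, 8.67, 8.46, 8.54 and 8.43 on controls. Every paraquat value was below every control, a pattern found in 11.6% of all genes, with a change of -0.35 ± 0.09 (adjusted p = 0.0146).

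The other 10 mitochondrial enzymes had changes between -0.29 and 0.12 that did not pass. The lowest were FARS2 (phenylalanine, -0.29), CARS2 (cysteine, -0.26), IARS2 (isoleucine, -0.23) and LARS2 (leucine, -0.19). CARS2 passed downward with weighted arrays (adjusted p = 0.031) and without paraquat 12 (0.0493). PARS2 (proline, -0.09) and HARS2 (histidine, -0.01) lay close to 0, and AARS2 (alanine, 0.06), RARS2 (arginine, 0.11), MARS2 (methionine, 0.11) and WARS2 (tryptophan, 0.12) just above it. For AARS2, whose arrays agreed closely, the 95% interval of -0.11 to 0.23 lies below the change of its cytosolic counterpart. FARS2 and MARS2 varied more between arrays of 1 group (SD 0.27 to 0.32), so their intervals are wide, -0.68 to 0.10 and -0.27 to 0.48.

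Genes whose rows also carry another symbol were left out of these counts. A row assigned to FARSB, the beta subunit of the phenylalanine enzyme, and to TRIM61 had a change of -0.09 (adjusted p = 0.81). Rows shared by EARS2 and UBFD1 had 0.05 and 0.18, rows that include SARS2 had -0.06, 0.06 and 0.05, the row of GTF2H4 and VARS2 had 0.02, and the row of YARS2 and NAP1L1 had 0.15. None of these 8 rows passed in limma, the lowest adjusted p being 0.259 and the lowest unadjusted p 0.0972.

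Whether the cytosolic and the mitochondrial enzyme of the same amino acid changed differently was tested on their ratio in each array. Both enzymes were measured in 12 of 17 listed pairs. The ratio was higher in paraquat cells in 6 pairs, with no overlap between the groups (exact two-sided permutation p = 0.00794 each, the smallest that 5 against 5 arrays can give, and 0.0159 after Benjamini-Hochberg adjustment over the 12 pairs), and it was lower in 0. The shift was largest for cysteine, where the log2 ratio of CARS1 to CARS2 ran from 1.27 to 1.82 on paraquat arrays and from -0.09 to 0.49 on controls, a relative gain of 2.54-fold. Tryptophan followed, with WARS1 over WARS2 at 3.70 to 3.90 on paraquat arrays and 2.48 to 2.81 on controls, a gain of 2.20-fold. For threonine, where TARS1 rose and TARS2 fell, the ratio ran from 2.87 to 3.15 on paraquat arrays and from 1.78 to 1.98 on controls, a gain of 2.11-fold. The ratios for isoleucine, alanine and EPRS1 over PARS2 gained 1.77-fold, 1.57-fold and 1.49-fold. For EPRS1 over PARS2 the groups barely separated, with a lowest paraquat log2 ratio of 1.46 and a highest control ratio of 1.45.

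In the other 6 pairs the ratio did not pass. For asparagine NARS1 and NARS2 both changed by 0.46, and the shift of their ratio was 0.00 (exact permutation p = 0.992). For methionine the shift was 0.25 with overlapping arrays (exact permutation p = 0.23), although MARS1 passed on its own and MARS2 did not. The pairs for leucine, histidine and phenylalanine shifted by 0.13, 0.06 and 0.05, and the arginine pair by -0.15 (exact permutation p = 0.103, 0.206, 0.794 and 0.0714). Values of the 2 histidine enzymes ran in parallel over the arrays, and the SD of their log2 ratio was 0.07 in paraquat cells and 0.05 in controls. Their genes lie head to head, and the RefSeq promoter windows of HARS1 (chr5:140691321-140691620, minus strand, GRCh38.p14) and HARS2 (chr5:140691205-140691504, plus strand) share 184 bases.

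**Figure D2:**
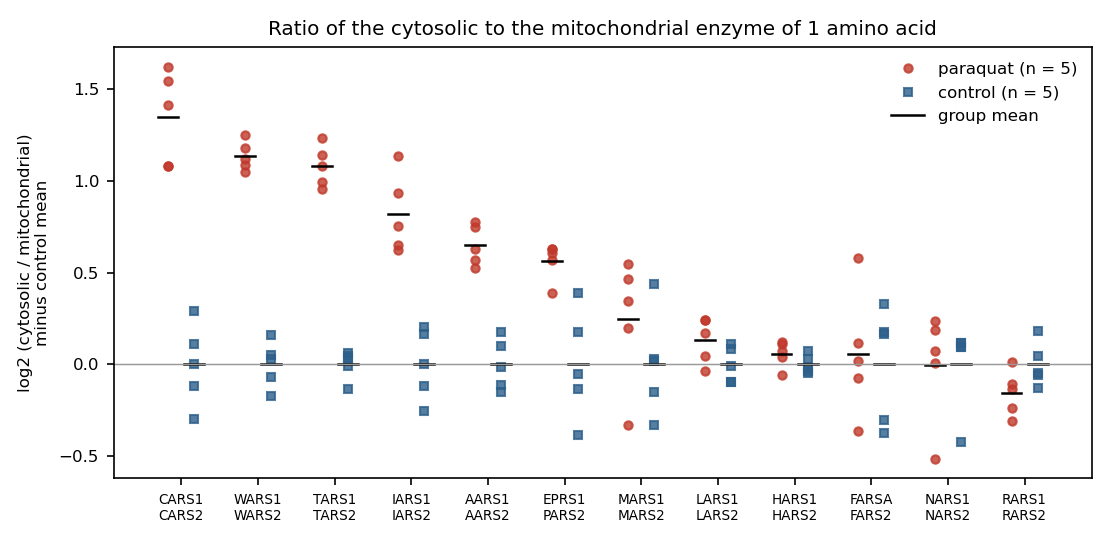
For each amino acid pair, points give the log2 ratio of the cytosolic to the mitochondrial enzyme on each array, less the control mean of that pair, with paraquat arrays left of controls and bars at group means. The first 6 pairs, from cysteine (CARS1 and CARS2) to EPRS1 and PARS2, show no overlap between groups, and the remaining 6 do.

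Averaged over the 18 cytosolic enzymes, as deviations from each gene's mean over all 10 arrays, the paraquat arrays lay between 0.15 (paraquat 18) and 0.35 (paraquat 14) and the controls between -0.27 (control 19) and -0.17 (control 11). The same average over the 12 mitochondrial enzymes ran from -0.23 (paraquat 18) to 0.17 (paraquat 14) on paraquat arrays and from -0.11 (control 19) to 0.12 (control 11) on controls. Paraquat 18 was thus lowest and paraquat 14 highest of the treated arrays in both sets. The same 2 arrays had the lowest and the highest median over all rows among the treated arrays (6.78 and 6.92). The difference between the averages was 0.13 to 0.38 on paraquat arrays and -0.30 to -0.16 on controls.

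Control 11 stood apart from the other controls over the whole table, with residuals of SD 0.358 against 0.215 to 0.274. It was the highest control in 16 of the 31 members and the lowest in 9. In 9 members (FARSA, HARS1, KARS1, RARS1, CARS2, HARS2, NARS2, RARS2 and AIMP1) control 11 and paraquat 12 were both the highest of their group. Without these 2 arrays 11 cytosolic enzymes still rose and 0 fell, 1 mitochondrial enzyme rose and 1 fell, and the medians were 0.49 and -0.06. Without control 11 alone, VARS1 passed downward (-0.34, adjusted p = 0.0481).

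The promoters of the cytosolic enzymes were searched for the C/EBP-ATF response element TGATGNAA, the kind of site that ATF4 dimers bind, and for the antioxidant response element TGACNNNGC, the kind that NRF2 dimers bind, on both strands of 300 bases (250 before to 50 after the annotated start, RefSeq, GRCh38.p14). Windows were found for 33 of the 38 members and 27 of the 31 measured ones, and LARS1, VARS1, YARS1, AARS2 and VARS2 had none. Several genes have more than 1 annotated start, and a gene was counted if any of its windows held a match. TGATGNAA matched in 7 of the 10 cytosolic genes that rose and have a window, in 0 of the 5 that did not pass, and in 3.6% of 15843 protein-coding genes. The genes that rose had more windows per gene. By window, the motif matched in 7 of 15, in 0 of 5 and in 2.69% of 22199 windows of protein-coding genes. The matches are shown with their flanks on the gene's strand because 6 of the 7 have the same letters once the strand is allowed for, with the match in capitals.
AARS1: ttttctcgcagTTGCATCAgccaagttaga
CARS1: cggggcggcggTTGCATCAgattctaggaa
GARS1: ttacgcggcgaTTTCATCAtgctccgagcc
IARS1: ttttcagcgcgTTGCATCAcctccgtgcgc
MARS1: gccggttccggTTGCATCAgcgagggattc
NARS1: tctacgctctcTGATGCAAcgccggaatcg
TARS1: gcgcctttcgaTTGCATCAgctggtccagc
The matches of AARS1, CARS1, IARS1, MARS1 and TARS1 have the letters TTGCATCA, NARS1 carries their reverse complement TGATGCAA, and GARS1 has TTTCATCA. The 30-base stretches lie at chr16:70289675-70289704 (AARS1), chr11:3057407-3057436 (CARS1), chr7:30594834-30594863 (GARS1), chr9:92293692-92293721 (IARS1), chr12:57488053-57488082 (MARS1), chr18:57621804-57621833 (NARS1) and chr5:33440956-33440985 (TARS1).

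All but 2 of these matches began within 13 bases before or 15 bases after the annotated start. The match of AARS1 began 187 bases before the start and that of GARS1 33 bases before it. IARS1 had its match 13 bases, MARS1 4 bases and CARS1 2 bases before the start, and in TARS1 and NARS1 it began at bases 3 and 15 of the transcript. WARS1, SARS1 and EPRS1 rose and had no TGATGNAA in their windows, which says only that these letters are not there. Among the mitochondrial enzymes with a window, 1 of 14 held the motif (YARS2, which has no row of its own), and NARS2 did not.

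TGACNNNGC matched in 3 of the 10 cytosolic genes that rose (WARS1, GARS1 and TARS1), in 1 of the 5 that did not pass (KARS1) and in 17.9% of protein-coding genes. By window, it matched in 4 of 15, in 1 of 5 and in 13.8% of windows of protein-coding genes. NARS2 and RARS2 also held it among the mitochondrial enzymes. No matches of the 2 motifs overlapped. The windows of the 4 members with the largest changes that hold either motif follow, with every match in capitals, so that the sites can be seen in context. TARS1 has a further window, not shown, that overlaps this one and holds another TGACNNNGC match.
WARS1 (chr14:100376278-100376577, minus strand): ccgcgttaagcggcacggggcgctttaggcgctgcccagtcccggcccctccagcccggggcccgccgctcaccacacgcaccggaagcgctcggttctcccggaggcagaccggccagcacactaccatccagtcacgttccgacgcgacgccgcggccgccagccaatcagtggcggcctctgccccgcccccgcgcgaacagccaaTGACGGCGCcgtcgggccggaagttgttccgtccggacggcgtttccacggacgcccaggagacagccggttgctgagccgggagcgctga
GARS1 (chr7:30594628-30594927, plus strand): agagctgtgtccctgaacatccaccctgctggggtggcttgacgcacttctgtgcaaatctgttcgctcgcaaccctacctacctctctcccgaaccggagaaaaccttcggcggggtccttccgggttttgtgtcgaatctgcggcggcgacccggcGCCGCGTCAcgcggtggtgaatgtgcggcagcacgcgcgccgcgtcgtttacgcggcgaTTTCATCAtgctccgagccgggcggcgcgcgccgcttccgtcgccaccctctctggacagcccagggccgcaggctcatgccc
CARS1 (chr11:3057374-3057673, minus strand): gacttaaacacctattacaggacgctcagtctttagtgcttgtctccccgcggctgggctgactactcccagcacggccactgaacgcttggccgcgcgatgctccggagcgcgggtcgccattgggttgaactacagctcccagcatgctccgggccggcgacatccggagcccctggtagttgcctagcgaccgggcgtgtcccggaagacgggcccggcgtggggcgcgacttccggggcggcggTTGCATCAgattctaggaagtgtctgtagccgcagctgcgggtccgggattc
TARS1 (chr5:33440715-33441014, plus strand): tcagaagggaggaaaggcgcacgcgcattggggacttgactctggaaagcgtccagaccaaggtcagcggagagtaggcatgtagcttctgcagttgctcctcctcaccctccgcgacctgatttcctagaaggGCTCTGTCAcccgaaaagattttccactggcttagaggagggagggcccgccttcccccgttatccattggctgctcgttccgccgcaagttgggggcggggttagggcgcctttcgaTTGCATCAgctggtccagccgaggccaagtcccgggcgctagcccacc
In GARS1 and TARS1 the first capital stretch is the TGACNNNGC match and the second the TGATGNAA match, both on the strand opposite to the gene. WARS1 shows TGACNNNGC alone and CARS1 TGATGNAA alone. A match is a stretch of letters, and binding was not measured.

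**Figure D3:**
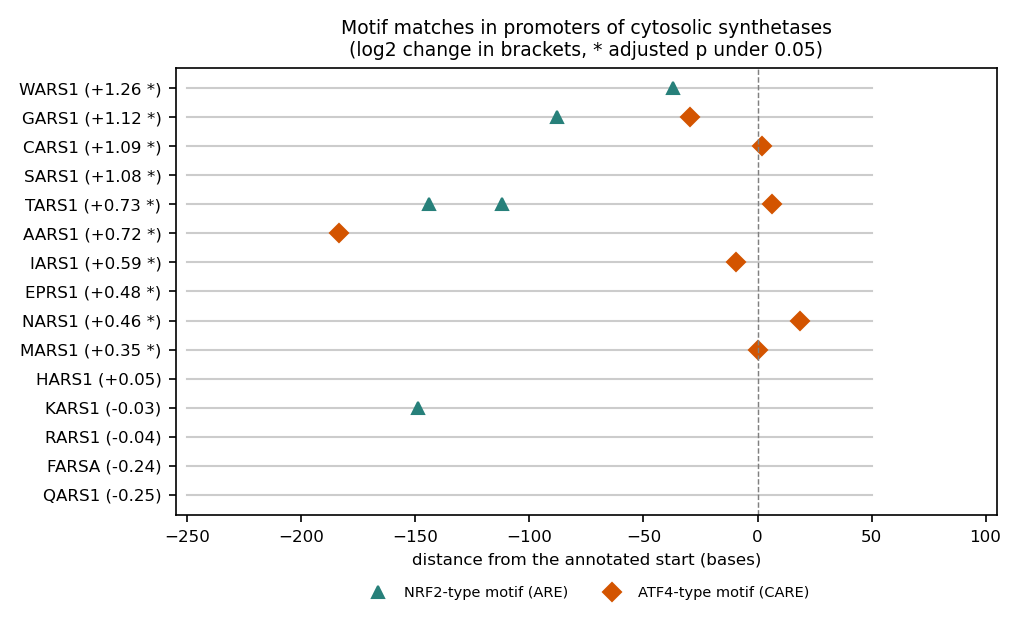
Each line is the 300-base window of a cytosolic synthetase gene, ordered by log2 change from top to bottom, with diamonds at matches of TGATGNAA and triangles at matches of TGACNNNGC. Genes with several annotated starts have all their windows on 1 line. Diamonds appear in 7 of the 10 genes that rose and in 0 of the 5 below them.

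The synthetases were set beside lists of genes of the amino acid response, of eIF2 signalling and of other steps of translation. Whether their changes belong to any of these responses was not tested. Of 23 measured genes of the amino acid response, which covers amino acid synthesis, uptake and the regulators around ATF4, 20 rose and 1 fell, at a median change of 1.11. The largest rises were in SLC7A11, the cystine importer (4.66 ± 0.12), DDIT3 (3.46 ± 0.27) and ATF3 (3.46 ± 0.16), which are stress transcription factors, and CHAC1, which degrades glutathione (2.91 ± 0.12). ASNS, the asparagine synthetase that makes the amino acid charged by NARS1 and NARS2, had 10.79, 10.73, 10.95, 10.64 and 10.75 on paraquat arrays, against 9.34, 9.52, 9.11, 9.29 and 9.16 on controls. The groups were wide apart, at a change of 1.49 ± 0.10. ATF4 itself changed by 0.47 ± 0.11 (adjusted p = 0.00935) at the level of its transcript. ALDH18A1, which makes a proline precursor, was the member that fell (-0.71, adjusted p = 0.000645). TGATGNAA matched in 6 and TGACNNNGC in 8 of the 17 genes of this list that rose and have a window. This list and the others were drawn up with earlier results of these data known.

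Of 15 genes around eIF2 phosphorylation 3 rose and 0 fell, against 9.55% and 14.2% of all genes, at a median of 0.05. The 3 that rose were PPP1R15A (2.66) and PPP1R15B (1.08), the regulatory subunits that direct a phosphatase to eIF2, and the endoplasmic reticulum kinase EIF2AK3 (0.52). EIF2AK4, the kinase that senses uncharged transfer RNA, had a change of -0.17 (adjusted p = 0.449). Factors that act after charging were counted next. Of 13 listed cytosolic elongation and termination factors 8 were measured. Of these 0 rose and 1 fell, against 9.55% and 14.2% of all genes. It was EEF2K, the kinase that inhibits elongation factor 2 (-1.17 ± 0.11, adjusted p = 3.92e-05). EEF2, EEF1A1, EEF1B2 and PELO had only rows shared with other genes, with changes of 0.21, 0.37, 0.14 and 0.05. None of these passed in limma, EEF2 having the lowest adjusted p (0.0665), with every paraquat array above every control. Of 13 mitochondrial translation factors 0 passed in either direction in limma, at a median of -0.14. At an unadjusted p under 0.05, 3 of them were lower, as were 2909 of all 14232 genes. The largest changes were in MTRFR, a release factor homologue (-0.48, limma unadjusted p = 0.0302), and MTRF1L, a release factor (-0.43). MTRF1L was not among the 3 (limma unadjusted p = 0.318). It varied widely between paraquat arrays (SD 1.0), and its 95% interval was -1.34 to 0.47.

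**Figure D4:**
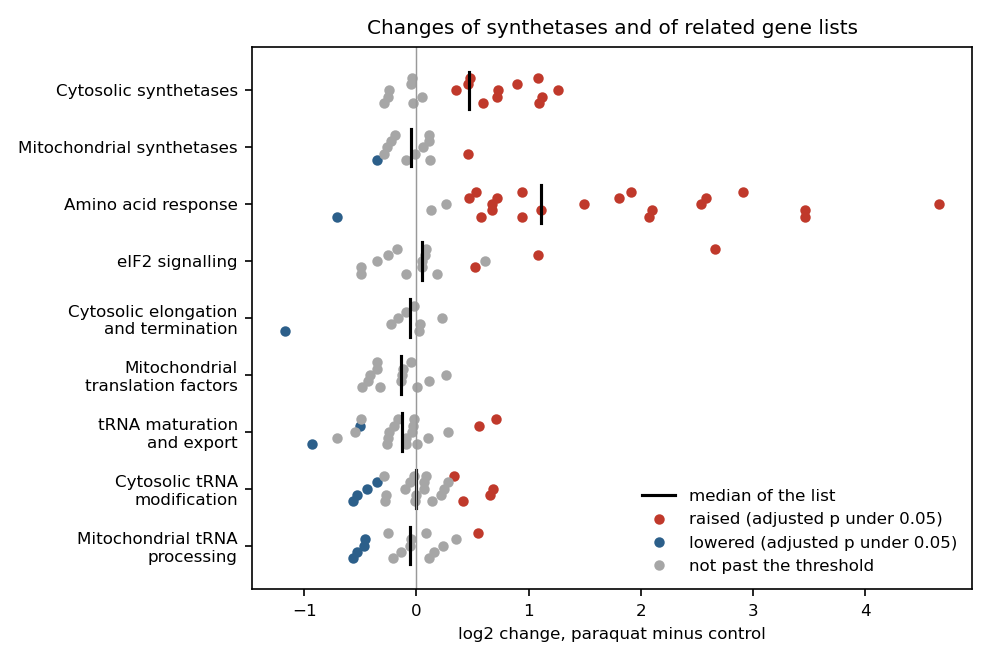
Each point is a gene, placed by its log2 change (paraquat minus control) and coloured by whether it rose, fell or missed the threshold, with a bar at the median of each list. The cytosolic synthetases (median 0.47) lie between the amino acid response (1.11) and the other lists, whose medians run from -0.14 to 0.05.

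Of 5 further measured genes related to the synthetases, 1 rose and 1 fell, against 9.55% and 14.2% of all genes. The difference from those shares was not tested. PSTK, a kinase that acts on serine already loaded onto the selenocysteine transfer RNA by SARS1, rose (0.46 ± 0.13, adjusted p = 0.0261), and SEPSECS, which completes selenocysteine on that transfer RNA, had a change of -0.19 (adjusted p = 0.55). DTD1, which removes D-amino acids from transfer RNA, fell (-0.54 ± 0.17, adjusted p = 0.042). DTD2, left out of the count because its row is shared with BBS5 and HEATR5A, changed by -1.38 on that row (limma adjusted p = 0.000296). TARS3, a further threonine enzyme, had a change of 0.00 (95% interval -0.16 to 0.16).

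Marker genes were checked for the identity of the cells. The sympathetic genes PHOX2A, ISL1 and GATA3 averaged 8.89, 8.74 and 9.21 in paraquat cells, against 9.97, 9.95 and 9.96 in controls, and 4 of the 5 measured sympathetic markers fell. The mean log2 value of these 5 was 7.89 to 8.20 on paraquat arrays and 8.82 to 9.20 on controls. TH, the 1 that did not pass, was low in both groups, at 6.25 in paraquat cells and 6.31 in controls (limma adjusted p = 0.685). On rows shared with other genes, HAND2 changed by -0.76 and DBH by -0.16 (limma adjusted p = 0.000232 and 0.71). Of 4 measured leukocyte markers 1 rose (CD14, 0.64), with means of 3.96 to 4.27 on paraquat arrays and 3.79 to 3.99 on controls, and PTPRC was at 2.72 in paraquat cells and 2.67 in controls, near the low end of the table. Of 3 glial markers 0 passed, with means of 4.61 to 5.26 on paraquat arrays and 4.56 to 5.09 on controls. Of 5 fibroblast markers 1 fell (LUM, -1.53), with means of 7.08 to 7.33 on paraquat arrays and 7.74 to 8.26 on controls. All 5 had negative changes, and 4 were lower at an unadjusted p under 0.05 in limma, as were 2909 of all 14232 genes. PDGFRA, on a row shared with FIP1L1, changed by -1.31 (limma adjusted p = 5.43e-05). The part of these shifts in the synthetase changes was not tested. In bulk RNA a change in the mix of cells cannot be told apart from a change in each cell.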

How the data were processed

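Total RNA was measured on exon arrays, and the authors deposited log2 values made with RMA, per the submitters' processing notes, with 1 value per transcript cluster. The labels name neither the software nor the genome build, and the range of values (1.07 to 14.37) fits a log2 scale. RMA draws weak signals together, which can shrink changes of dim rows, and no detection calls were used. Symbols came from the platform annotation, and for all 31 measured members they matched RefSeq by gene identifier.

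Deposited values of both groups were compared by limma 3.58.1 under R 4.3.3 (group as the only term, 8 residual and 3.06 prior degrees of freedom, two-sided, Benjamini-Hochberg over 22011 rows, called at an adjusted p under 0.05), with no filter. Errors of changes are moderated standard errors, with a median of 0.13 over all rows, and precision is limited by the number of arrays. Pair ratios were tested by exact permutation over arrays (scipy 1.17.1). Alternatives covered scaling, dim rows, array weights, the prior, a minimum fold, a stricter threshold, left-out arrays and a block. All members could be named, and of each other list up to 4 called genes with the largest changes, or up to 2 where none was called. EIF2AK4, ASNS, ATF4, ALDH18A1, SEPSECS, DTD2, TARS3, EEF2, EEF1A1, EEF1B2, PELO and the markers named were added after their values were seen. The members and lists were chosen with earlier results of these data known. Protein sequences were not used here.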

Additional observations from a re-analysis of the deposited data

Results flagged for a closer look

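Among 62 groups of 5 arrays (31 members, each in paraquat and control cells) 2 held an array far from the others, where chance gives about 1 in 20 groups. EPRS1 on paraquat 14 was 10.42, against 9.89 to 10.04 on the other paraquat arrays. Without paraquat 14 its change was 0.39 and still passed. LARS1 on control 7 was 10.81, against 10.43 to 10.53 on the other controls, and without control 7 its change was 0.02.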

How the results depend on the processing

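Of 13 members called, 8 kept direction and call under all 19 alternatives, 5 lost the call under at least 1 of them, and 0 reversed. Of 18 members not called, 4 (FARSA, QARS1, VARS1 and CARS2) gained a downward call under at least 1. The count of cytosolic enzymes raised was 8 against a minimum fold of 1.2, 9 at an adjusted p under 0.01 and 11 elsewhere. With 1 array left out, 11 cytosolic enzymes rose and 0 to 1 fell, 0 to 1 mitochondrial enzymes rose and 1 to 2 fell, the medians were 0.39 (without paraquat 14) to 0.53 and -0.10 to 0.01, and 6 to 7 pairs passed. Mitochondrial enzymes raised and lowered were 0 and 0 both at an adjusted p under 0.01 and against the minimum fold. Array weights gave 3 cytosolic and 2 mitochondrial enzymes lowered, and a block of adjacent title numbers 2 cytosolic enzymes lowered (FARSA and VARS1); the cause was not tested. Over all rows, 1873 were raised and 2524 lowered, against 1068 and 1424 at the stricter threshold and 735 and 913 against the minimum fold. With array weights 3588 of the 22011 rows were lowered, and with the block 3153. Quantile normalization gave 8 pairs. Median centring subtracts 1 constant per array, which cancels in a ratio within an array, so its count of 6 pairs was fixed in advance. The groups share no replicate numbers and no label pairs the arrays, so adjacent title numbers served as a block only as an alternative. Deviations of adjacently numbered arrays correlated at 0.091 to 0.461, and 3 of 5 paraquat arrays had their adjacent control as closest partner. For pairs, the other settings do not alter the ratios, and a block of 5 could not reach the threshold by permutation, so these were not run. No member has several rows, so averaging rows was not run.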

Other observations

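Genes that process and modify transfer RNA were counted in 3 lists, to be read against the 9.55% of all genes that rose and the 14.2% that fell; differences from those shares were not tested. Of 20 measured genes of transfer RNA maturation and export, 2 rose and 2 fell, near or below those shares, at a median change of -0.13. XPOT, the exporter of transfer RNA from the nucleus, had 9.74, 9.65, 9.97, 9.50 and 9.79 on paraquat arrays, against 8.97, 9.43, 8.99, 8.82 and 8.88 on controls, with no overlap (0.71 ± 0.13, limma adjusted p = 0.00271). CLP1, an RNA kinase of the splicing endonuclease complex, also rose (0.56). POP1, a subunit of ribonuclease P, had 7.38, 6.81, 6.98, 6.63 and 6.75 on paraquat arrays, against 8.10, 7.77, 7.75, 7.94 and 7.63 on controls, and fell by 0.93. ELAC2, which trims the 3' end of transfer RNA precursors, fell by 0.50.

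Of 23 cytosolic modification genes 4 rose and 4 fell, at a median of 0.00. TRMT61A (0.68) and METTL1 (0.66), which methylate transfer RNA, rose most, and ADAT2 (-0.56), a deaminase of the wobble base, and TRDMT1 (-0.53), a cytosine methyltransferase, fell most. Of 15 genes of mitochondrial transfer RNA processing 1 rose (MTO1, 0.55) and 4 fell, with PRORP, the nuclease of mitochondrial ribonuclease P, at -0.56, TRMT2B at -0.53 and NSUN3 at -0.47.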
